A study of Mus musculus with 9 samples.

Results

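Genes of the cytosolic DNA and RNA sensors were followed in mouse liver, 10 genes selected by symbol: the DNA-directed sensors Cgas, Zbp1, Ifi204 and Aim2, the RNA helicases Ifih1 and Dhx58, the adaptor Mavs with the kinase Tbk1, and the clearing enzymes Trex1 and Samhd1. All 10 were found among the 27179 genes of the deposited table. They were measured by bulk poly(A) RNA-seq in liver pieces (m-lobe) of C57BL/6J mice with the WT genotype label. All mice were injected retro-orbitally at 17 months of age with AAV8 and their livers were taken 3 weeks later. The vector carried saCas9, a small Cas9 nuclease, under TBG, a promoter active in hepatocytes, together with a U6-driven guide RNA. The guide was directed at Rosa26 in the control group (sgRosa26, n = 4) and at Ccnd1, the cyclin D1 gene, in the other (sgCcnd1, n = 5), so nuclease and vector were common to both. The series title names inflammatory signalling as the subject. Since the nuclease acts in hepatocytes and whole tissue was sequenced, cells that do not use TBG contributed RNA from unedited genomes.

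Cells recognise foreign or misplaced DNA and RNA in the cytosol with a small set of sensor proteins. Cyclic GMP-AMP synthase (Cgas) binds double-stranded DNA and makes a second messenger for the adaptor STING, while the helicases MDA5 (Ifih1) and RIG-I bind double-stranded RNA and signal through Mavs on mitochondria. Both routes meet at the kinase Tbk1, which activates interferon regulatory factors. A liver piece holds hepatocytes and immune cells, and bulk counts do not show which of them expressed each gene. Many genes of this machinery are themselves raised by interferon.

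The 4 control libraries are lettered A, B, C and D and the 5 of the Ccnd1 guide E, F, G, H and I. Letters follow column order alone. The columns give a guide target and an animal number, but no sample label holds that number. The titles name a mouse for each sample. Gene-assigned reads numbered 12249127 to 16602988 in sgRosa26 and 10840595 to 20176201 in sgCcnd1. The targeted gene Ccnd1 stood at 625 to 867 normalized counts in sgRosa26 and at 325 to 428 in sgCcnd1 (log2 fold change -1.03, limma adjusted p = 0.0116). Library H differed from the other 8 in Y-linked transcripts, with Ddx3y at 2.00 normalized counts against 810 to 1154, so member values without H are given where they differ by over 1.5 times. Hepatocyte markers were abundant in all libraries, Alb (albumin) with a mean of 1528900 normalized counts in sgRosa26 and 1497200 in sgCcnd1.

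No sensor gene passed the test across the 12993 genes whose mean reached 10 normalized counts, a minimum that all 10 members met. For this test limma was fitted to log2(normalized count + 1) and p-values were adjusted by the Benjamini-Hochberg method. With adjusted p-values below 0.05 taken as calls, limma called 0 of 10 members lower and 0 higher, where 0.0077% of all genes tested were lower and 0% higher. Without the adjustment, 4 members were lower at p below 0.05 in limma (Zbp1, Dhx58, Samhd1 and Aim2; background 5.74%) and 1 higher (Mavs; background 5.22%). The edgeR quasi-likelihood test on the recovered reads called 0 members. The DESeq2 Wald test on the same reads called 1 lower, Zbp1, where 0.634% of its genes with a defined adjusted p were lower and 0.342% higher. In sign, 8 of 10 members were lower in sgCcnd1 and 2, Mavs and Tbk1, were higher, against 47.1% of all genes tested lower and 52.9% higher. Groups did not overlap for 1 member lower (background 1.97%) and for 0 higher (background 1.92%). The median log2 fold change of the 10 members was -0.28, beside 0.01 for all genes tested. Without library B this median was -0.17 and without H it was -0.19. In bulk tissue, fewer cells of a type and less RNA per cell cannot be told apart, so every difference below refers to the RNA of the lobe as a whole. Markers of myeloid cells, which also use these sensors, summed to 3196 to 3797 normalized counts in sgRosa26 and to 2308 to 2821 in sgCcnd1, below all controls in 5 of 5 libraries, and their part in the sensor values was not tested.

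**Figure D1:**
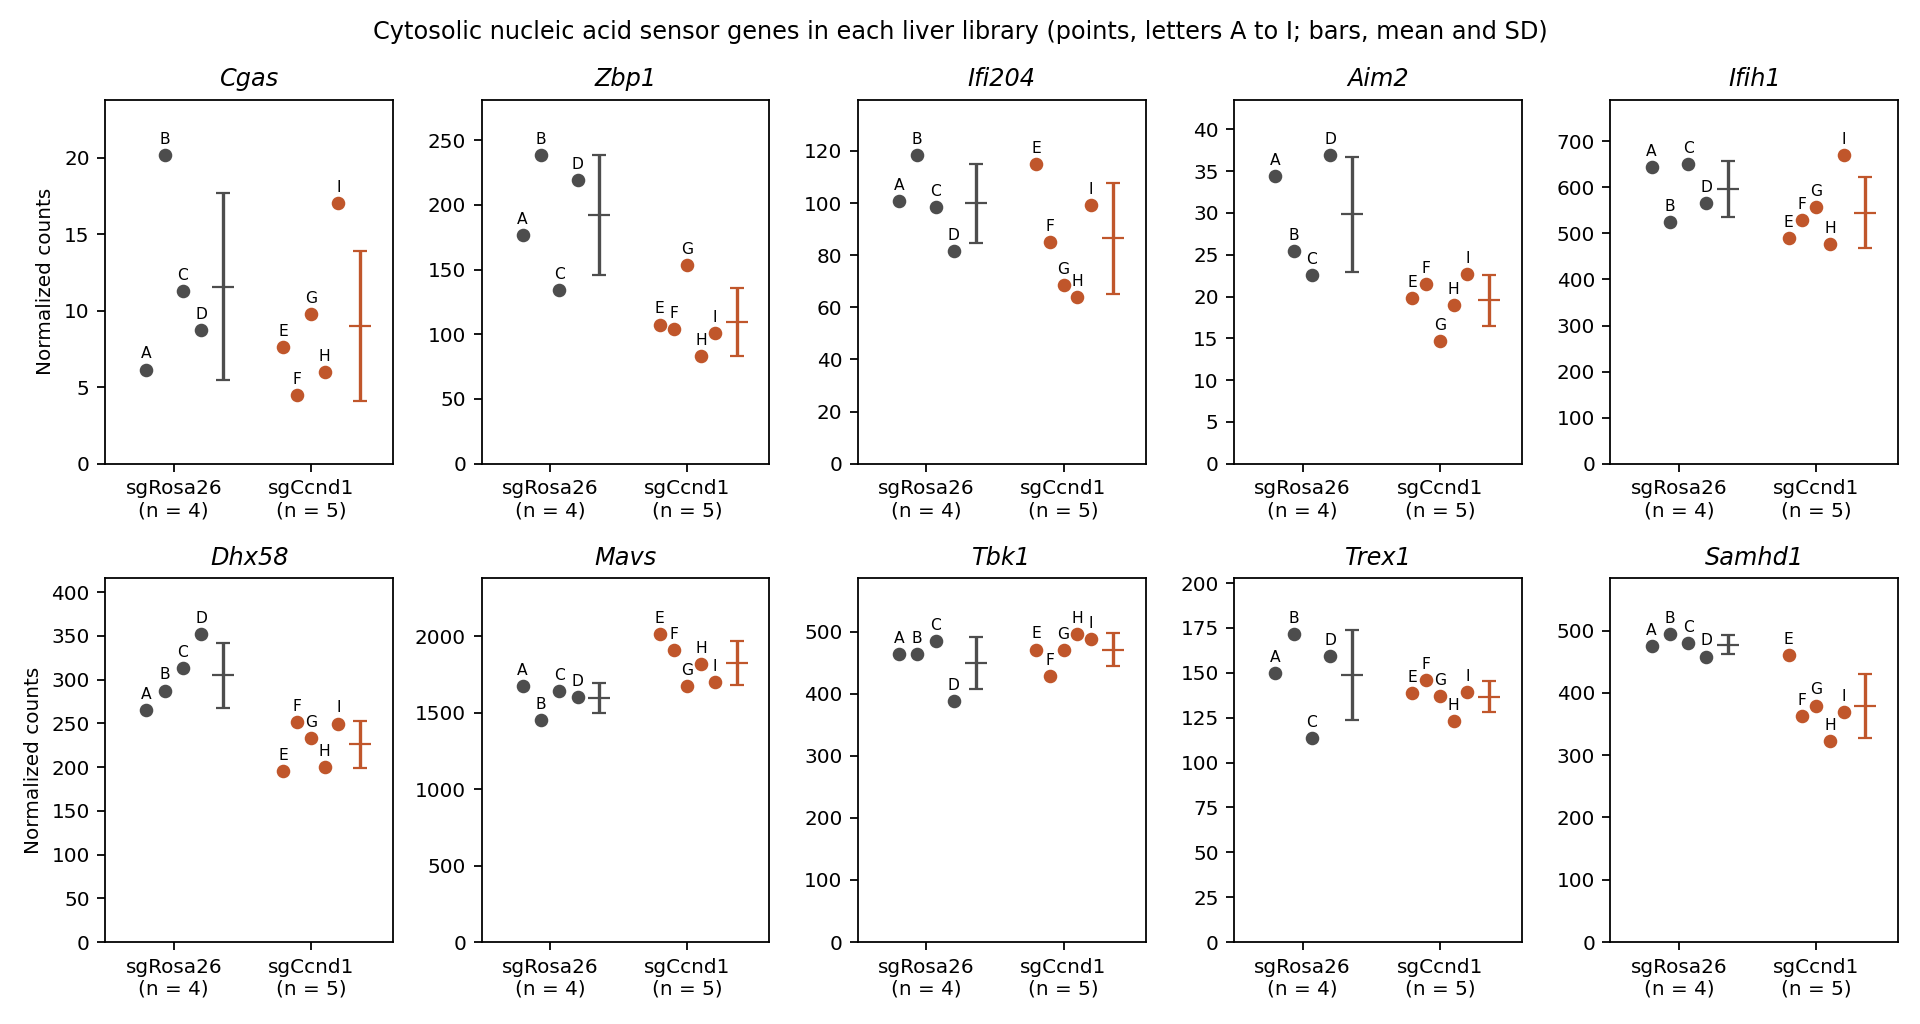
Normalized counts of each of the 10 genes (vertical axes, starting at 0) in the 4 sgRosa26 and 5 sgCcnd1 libraries; each point is 1 library with its letter, and the bar beside each group gives the mean and SD. Every sgCcnd1 point of Dhx58 lies below its 4 control points, while the points of the other 9 genes overlap between groups.

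**Figure D2:**
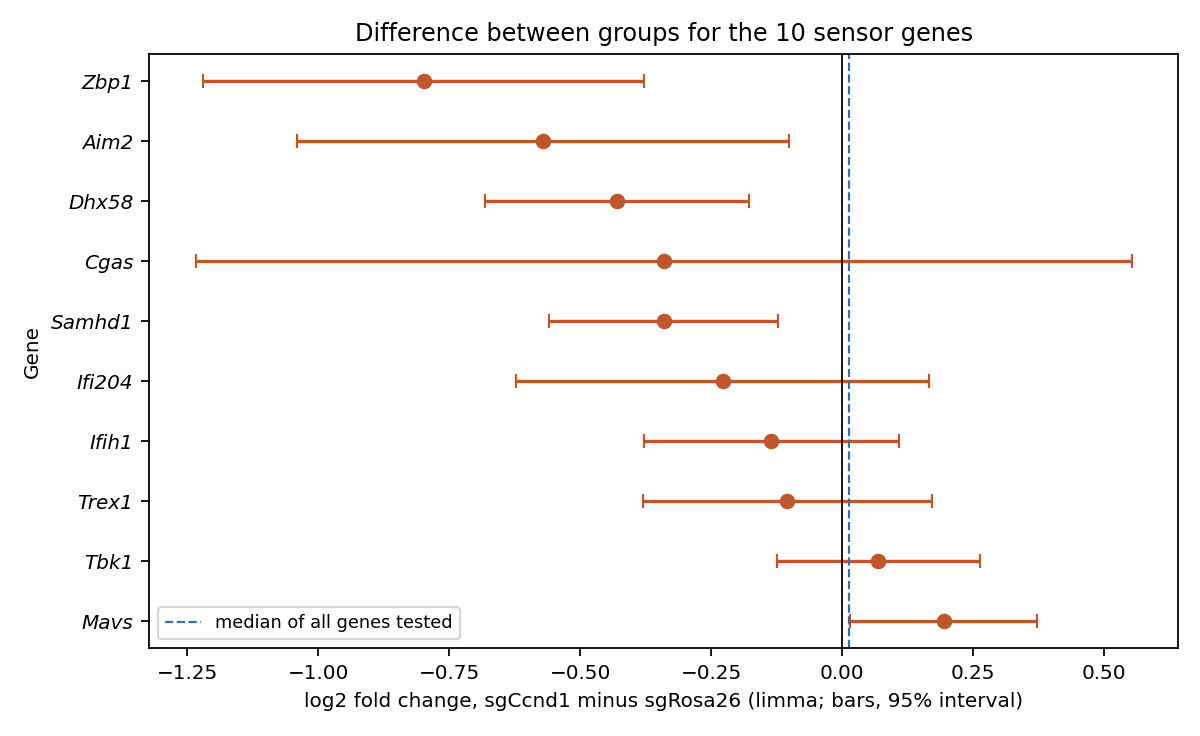
The limma log2 fold change of each gene (horizontal axis, sgCcnd1 minus sgRosa26) with its 95% interval; the dashed line is the median of all genes tested, 0.01. Intervals of Zbp1, Aim2, Dhx58 and Samhd1 lie below 0 and that of Mavs above 0, before any adjustment for the number of genes.

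Among the RNA helicases, Dhx58 was the member whose groups did not overlap. Dhx58 encodes LGP2, a RIG-I-like helicase without the signalling domains of its relatives that modulates MDA5 and RIG-I. It lies on GRCm38 at chr11:100694884-100704271, minus strand (Entrez 80861). Its normalized counts were 266, 288, 313 and 353 in A to D, and 196, 252, 233, 199.9 and 249.8 in E to I. All 5 sgCcnd1 libraries were thus below the lowest control. The mean was 305 ± 37.4 in sgRosa26 (SD, n = 4) and 226 ± 26.7 in sgCcnd1 (SD, n = 5), 74.2% of the control mean. On the log2 scale the difference was -0.43 (SE 0.12), which did not pass (limma adjusted p = 0.255, DESeq2 adjusted p = 0.0603). An antisense transcript, Dhx58os, overlaps Dhx58 in the GENCODE M21 annotation, and whether the counting used strand is not stated in the sources used here.

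Ifih1, the gene of the long double-stranded RNA sensor MDA5, differed less. It lies at chr2:62595798-62646255, minus strand. Its counts were 644, 524, 651 and 566 in A to D and 490.2, 529, 558, 477 and 669.9 in E to I. The highest value of all 9 libraries was that of I, an sgCcnd1 library, and the lowest was that of H. The mean was 597 ± 61.8 normalized counts in sgRosa26 and 545 ± 76.9 in sgCcnd1, a log2 fold change of -0.14 with a 95% interval from -0.38 to 0.11 (limma adjusted p = 0.676). It was -0.09 without H and -0.21 without I. That interval holds 0 and also the log2 fold change of Samhd1. Rigi, the gene of RIG-I, was at 664 ± 101 and 579 ± 49.0 normalized counts (-0.19 in log2, limma adjusted p = 0.546).

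Promoter sequences were at hand for 7 of the 10 genes, 8 windows in all since Trex1 has 2, and not for Zbp1, Ifi204 and Dhx58. Each window is RefSeq sequence of GRCm38.p6 from 250 bases before to 50 after a transcript start. On both strands, 4 motifs were searched. They were the core of the interferon-stimulated response element (GAAA, any 2 bases, GAAA), the GAS element bound by STAT dimers (TTCNNNGAA), a kappa B element (GGGA, any base, TTTCC) and an E2F element (TTTNNCGC). Among 32851 promoters of 300 bases, 3.44% held the first, 8.30% the second, 0.411% the third and 5.17% the fourth. Of the 7 genes, Ifih1 held the response element core, Samhd1 the GAS element and Cgas the E2F element at 2 places, and no matches overlapped. No kappa B match lay in the 8 windows. The promoters of the 3 genes with a match and of Mavs, the member with the highest mean relative to controls, are shown 5' to 3' on the gene's strand, with each match in capitals. The windows are chr2:62646206-62646505 (minus strand) for Ifih1, chr2:157135047-157135346 (minus) for Samhd1, chr9:78443188-78443487 (minus) for Cgas and chr2:131233813-131234112 (plus) for Mavs.
Ifih1: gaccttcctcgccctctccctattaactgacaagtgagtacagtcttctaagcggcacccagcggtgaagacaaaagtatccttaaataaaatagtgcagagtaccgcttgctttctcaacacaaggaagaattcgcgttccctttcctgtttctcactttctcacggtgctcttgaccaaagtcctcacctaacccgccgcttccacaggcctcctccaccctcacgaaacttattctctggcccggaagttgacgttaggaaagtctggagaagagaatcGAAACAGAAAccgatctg
Samhd1: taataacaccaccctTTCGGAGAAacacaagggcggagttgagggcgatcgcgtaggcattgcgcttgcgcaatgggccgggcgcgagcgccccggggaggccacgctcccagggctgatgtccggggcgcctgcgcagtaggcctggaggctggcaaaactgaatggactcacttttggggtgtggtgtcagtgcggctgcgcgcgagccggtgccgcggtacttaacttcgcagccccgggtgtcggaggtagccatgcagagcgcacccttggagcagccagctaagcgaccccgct
Cgas: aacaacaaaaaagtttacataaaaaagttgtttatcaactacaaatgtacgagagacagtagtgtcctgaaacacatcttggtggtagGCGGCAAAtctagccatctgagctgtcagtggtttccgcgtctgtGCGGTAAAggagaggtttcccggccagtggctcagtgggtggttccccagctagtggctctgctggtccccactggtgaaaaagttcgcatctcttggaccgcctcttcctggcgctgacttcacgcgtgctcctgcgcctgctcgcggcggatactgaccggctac
Mavs: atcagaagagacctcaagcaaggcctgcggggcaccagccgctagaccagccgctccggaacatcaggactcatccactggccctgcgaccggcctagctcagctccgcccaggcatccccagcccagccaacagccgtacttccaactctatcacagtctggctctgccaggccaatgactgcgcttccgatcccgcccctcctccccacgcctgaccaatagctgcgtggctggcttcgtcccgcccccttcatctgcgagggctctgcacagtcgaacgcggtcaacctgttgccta
The Ifih1 match began 32 bases after the start and the Samhd1 match 235 bases before it. The Cgas matches, read on the other strand, began 162 and 117 bases before the start. The 3 genes with a match differed in their counts: Samhd1 had 4 of 5 sgCcnd1 libraries below all controls, Ifih1 2 and Cgas 2.

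Of the DNA-directed sensors, Zbp1 had the lowest level relative to controls. Its product binds left-handed Z-form DNA and RNA and can start necroptosis through Ripk3. The gene (Entrez 58203) lies at chr2:173206612-173218923, minus strand. Zbp1 stood at 177, 238, 134 and 219 normalized counts in A to D, and at 107, 104, 154, 83.0 and 101 in E to I. The groups overlapped through 2 libraries: C was the low control and G the high sgCcnd1 library, and the other 4 sgCcnd1 libraries were below all controls. The mean was 192 ± 46.4 in sgRosa26 (SD, n = 4) and 109.8 ± 26.3 in sgCcnd1 (SD, n = 5), 57.1% of the control mean. This gave a log2 fold change of -0.80 (SE 0.19, limma adjusted p = 0.253, edgeR adjusted p = 0.229). DESeq2 gave -0.82 with an adjusted p of 0.0221, and its call was lost without B (adjusted p = 0.210), D (0.107), F (0.0697), H (0.110) or I (0.0808).

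Aim2 encodes the DNA sensor that assembles the AIM2 inflammasome with the adaptor ASC. It was a low gene, with 15 to 38 recovered reads per library. Its normalized counts were 34.4, 25.4, 22.5 and 36.9 in A to D and 19.8, 21.5, 14.7, 19.0 and 22.7 in E to I. Library I of the sgCcnd1 group was above control C by a fraction of a count, and the other 4 were below all controls. The mean was 29.8 ± 6.93 in sgRosa26 and 19.5 ± 3.07 in sgCcnd1, 65.5% of the control mean (log2 fold change -0.57, SE 0.22, limma adjusted p = 0.372). When libraries were rescaled to a common 75th percentile or by TMM, the groups of Aim2 no longer overlapped.

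Ifi204, the mouse PYHIN gene often set beside human IFI16, varied widely within the sgCcnd1 group. Its counts were 101, 118, 98.5 and 81.6 in A to D and 115, 85.0, 68.5, 64.0 and 99.3 in E to I. E and I were level with the controls, G and H were below all of them, and F lay inside the control range. Its log2 fold change was -0.23 with a 95% interval from -0.62 to 0.17 (limma adjusted p = 0.668), and it was -0.13 without H and -0.14 without B. PYHIN genes form a cluster of similar copies, so reads could be split between them.

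Cgas itself was at the edge of detection, with 5 to 23 recovered reads per library and a mean of 10.1 normalized counts, just above the minimum for testing. Its counts were 6.15, 20.2, 11.3 and 8.74 in A to D and 7.62, 4.48, 9.79, 6.00 and 17.0 in E to I. The highest control, B, had 23 reads, with an exact 95% Poisson interval of 14.6 to 34.5 that covers counting error alone, and the lowest, A, had 5 reads, with an interval of 1.62 to 11.7. The spread among controls was thus larger than the difference between groups. For Cgas the log2 fold change was -0.34 with a 95% interval from -1.23 to 0.55 (limma adjusted p = 0.787), wide enough to hold the value of Zbp1 as well as an increase. It was -0.05 without B and -0.16 without F, but -0.57 without A and -0.59 without I, and DESeq2 left its adjusted p undefined. A transcribed pseudogene on the opposite strand, Gm8093, overlaps Cgas in the annotation. A difference in Cgas was not detectable in these libraries.

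The adaptor and the kinase were the pair with higher means in sgCcnd1. Mavs relays signals of MDA5 and RIG-I from the mitochondrial membrane. It lies at chr2:131234063-131248025, plus strand (Entrez 228607). Its counts were 1678, 1456, 1643 and 1601 in A to D and 2019, 1909.5, 1678, 1821 and 1702 in E to I. G fell a fraction of a count short of control A, and the other 4 sgCcnd1 libraries were above all controls. The mean was 1595 ± 97.8 in sgRosa26 (SD, n = 4) and 1826 ± 143 in sgCcnd1 (SD, n = 5), 114% of the control mean. The difference in log2 was 0.19 (SE 0.08, limma adjusted p = 0.417, DESeq2 adjusted p = 0.379).

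Tbk1 phosphorylates IRF3 once STING or MAVS has recruited it. Its counts were 464, 464, 484 and 388 in A to D and 471, 428, 471, 497 and 488 in E to I. Apart from the low control D, the controls lay within the sgCcnd1 range. Tbk1 had a log2 fold change of 0.07 with a 95% interval from -0.12 to 0.26 (limma adjusted p = 0.805), and it was -0.00011 without D and 0.11 without C.

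The clearing enzymes limit what the sensors can see. Samhd1 hydrolyses deoxynucleotides and restricts reverse-transcribing viruses, and its loss in humans causes Aicardi-Goutieres syndrome. It lies at chr2:157097533-157135265, minus strand (Entrez 56045). Its counts were 475, 495, 481 and 458 in A to D and 461, 363, 379.9, 323 and 369 in E to I. The controls were close together, and library E alone of the sgCcnd1 group reached them. The mean was 477 ± 15.2 in sgRosa26 (SD, n = 4) and 379 ± 50.7 in sgCcnd1 (SD, n = 5), 79.4% of the control mean. Samhd1 had a log2 fold change of -0.34 (SE 0.10, limma adjusted p = 0.283, DESeq2 adjusted p = 0.156). DESeq2 without 1 library ranged from -0.28 without H (adjusted p = 0.465) to -0.42 without E (adjusted p = 0.0103), and limma gave -0.41 without E (adjusted p = 0.128).

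Trex1 is the main cytosolic 3' to 5' DNA exonuclease and degrades the DNA that would activate Cgas. Its counts were 150.0, 172, 114 and 159 in A to D and 139, 146, 137, 123 and 139 in E to I. The 5 sgCcnd1 libraries sat between the lowest and the next control. Trex1 had a log2 fold change of -0.11 with a 95% interval from -0.38 to 0.17 (limma adjusted p = 0.787), and leaving out 1 control moved it both ways, to -0.23 without C, -0.07 without D and -0.03 without B. Without H it was -0.07. The coefficient of variation was 16.8% among controls and 6.16% in sgCcnd1. Exons of Atrip, on the same strand, overlap Trex1 in the annotation, and Atrip itself ranged from 111 to 152 normalized counts.

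Across libraries, the sensor genes did not move as a block. The median over the 10 genes of the log2 deviation from the control mean lay between -0.02 and 0.05 in the 4 controls. These controls define that mean, so their own deviations are centred by construction, unlike those of sgCcnd1. Among the sgCcnd1 libraries, H had the lowest median at -0.58, followed by F (-0.24), G (-0.20) and E (-0.18), and I was nearest the controls (-0.04). H, the library with almost no Y-linked transcripts, held the lowest value of 4 genes (Zbp1, Ifi204, Ifih1 and Samhd1) and the highest of Tbk1. Of the 10 genes, 7 were below all controls in H and 5 in F, while E and G had 4 each and I had 3. The share over all genes was not computed for each library, so these counts cannot be read as particular to the sensors. Control B held the highest value of 5 genes, Cgas, Zbp1, Ifi204, Trex1 and Samhd1, and the lowest of Mavs.

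**Figure D3:**
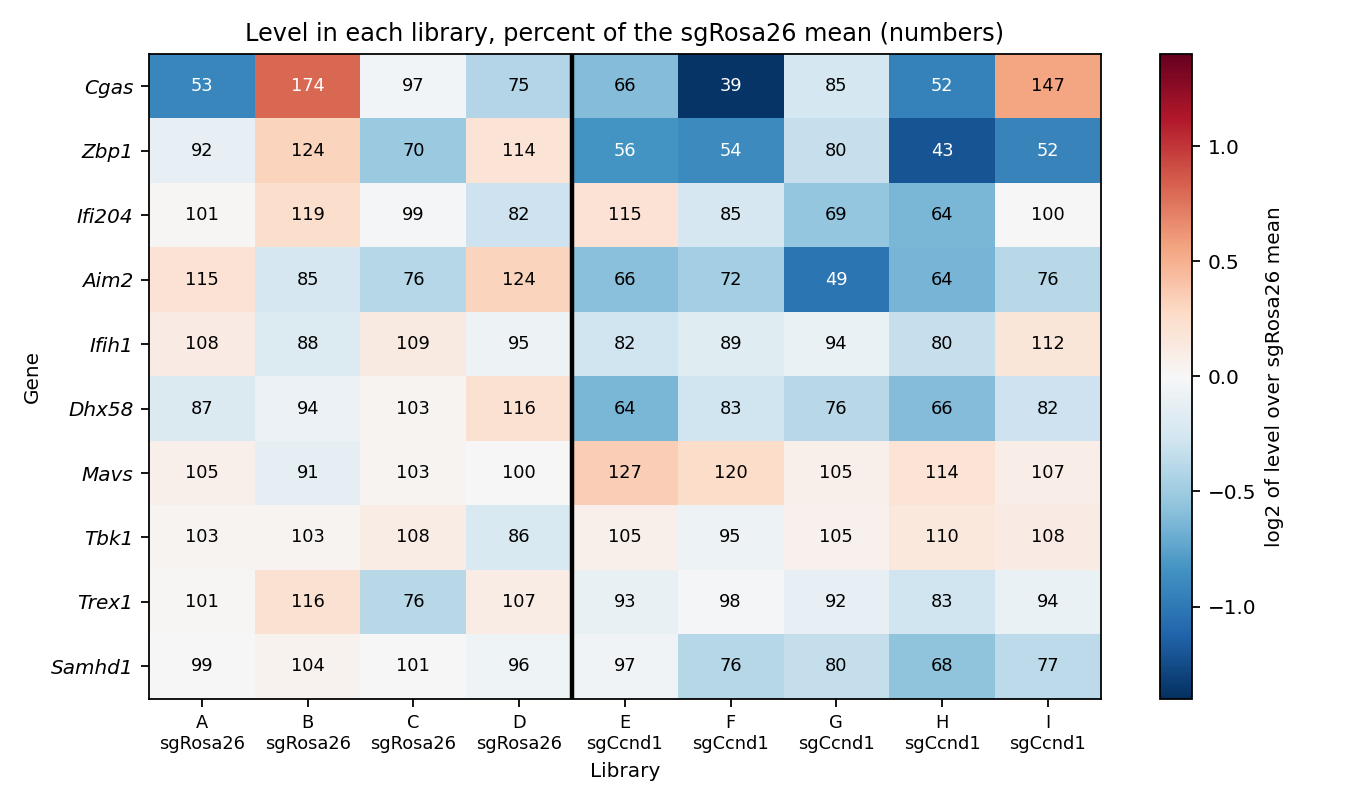
Level of each gene (rows) in each library (columns) as a percent of the sgRosa26 mean, printed in each cell and coloured on a log2 scale, with a black line between the groups. Dhx58 is at 64.3% to 82.5% in the 5 sgCcnd1 libraries and Mavs at 105% to 127%, while Cgas spans 38.7% to 147%.

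With each group's mean removed, pairs of members differed in how they varied from animal to animal. Over the 9 libraries Pearson's r was 0.78 for Samhd1 with Ifi204 and 0.75 for Trex1 with Zbp1, but -0.74 for Mavs with Cgas. They are the extremes of all member pairs, picked for their size, and every other pair lay between them. Cgas had only 5 to 23 recovered reads per library. These are descriptions over 9 points that share a library, its size factor and its tissue piece. Non-member genes among those most like the mean profile of the 10 members, among 10403 with a mean of 50 or more, were Fancg (r = 0.96), Tlr3 (0.96), Clec7a (0.95) and Socs5 (0.95). Without H and I, the libraries farthest from the median of the profile, r was 0.91 for Fancg, 0.79 for Tlr3, 0.86 for Clec7a and 0.93 for Socs5. The genes were picked for a high r on these same libraries, so both sets of r are high through that choice. These r values leave the group means out: sgCcnd1 minus sgRosa26 was 0.20 in log2 for Fancg (limma adjusted p = 0.679), -0.26 for Tlr3 (0.531), -0.89 for Clec7a (0.253) and -0.15 for Socs5 (0.748). Tlr3 encodes an endosomal receptor of double-stranded RNA and Clec7a a myeloid receptor of fungal glucans.

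Between genes, levels were compared per kb of exon, with exon lengths from the union of GENCODE M21 exons. These lengths run from 1147 bases for Trex1 to 9150 for Samhd1 and can exceed the expressed transcript. The annotation used for counting is not given, so the order below depends on this choice of lengths. In sgRosa26 the adaptor Mavs was highest, at 477 ± 29.2 normalized counts per kb (SD, n = 4). Trex1 (130 ± 21.8), Tbk1 (115 ± 10.8), Dhx58 (93.1 ± 11.4) and Ifih1 (73.1 ± 7.56) followed. Zbp1 was at 54.5 ± 13.2 per kb, Samhd1 at 52.2 ± 1.67, Ifi204 at 28.0 ± 4.22, Aim2 at 8.52 ± 1.98 and Cgas at 2.81 ± 1.48. Control libraries of neighbouring genes in this order overlapped between Trex1 and Tbk1, Tbk1 and Dhx58, Ifih1 and Zbp1, and Zbp1 and Samhd1. They did not overlap at the other 5 steps. In sgCcnd1 the order was the same except that Tbk1 (120.5 per kb) stood above Trex1 (119) and Samhd1 (41.4) above Zbp1 (31.1).

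**Figure D4:**
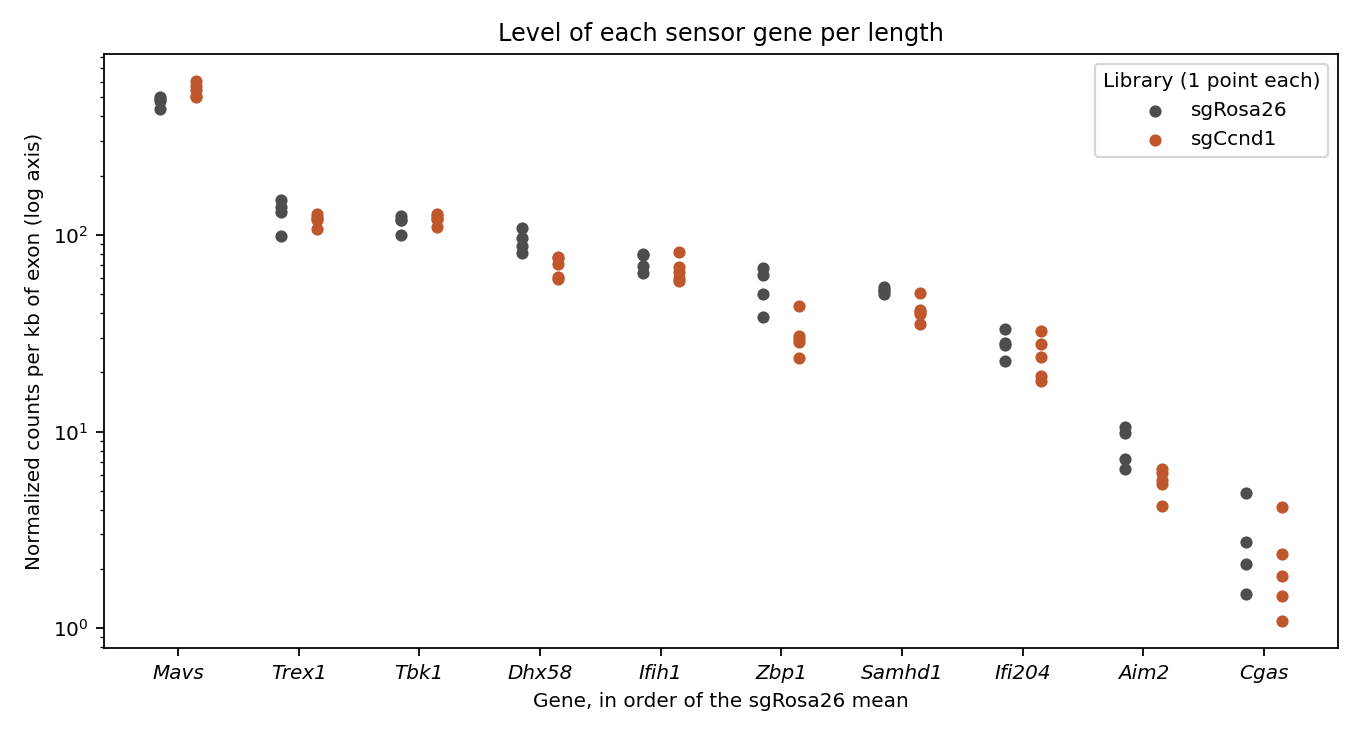
Normalized counts per kb of exon (log axis) of each gene, with 1 point per library and the genes in the order of their sgRosa26 mean. Mavs lies above every other gene in all 9 libraries, and Aim2 and Cgas lie below the remaining 8.

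Other genes of these pathways were followed in 7 lists with 89 symbols, of which 84 were in the table and 73 passed the minimum. In limma, 0 of the 73 passed after adjustment. Before adjustment 15 were lower and 0 higher at p below 0.05, beside backgrounds of 5.74% and 5.22%. Groups did not overlap for 9 lower and 0 higher (backgrounds 1.97% and 1.92%), and Oasl2, Ifi203, Mlkl, Ikbke and Tbkbp1 were among the 9. DESeq2 called 1 lower, Oasl2, and 0 higher (backgrounds 0.634% and 0.342%). The median log2 fold change of the 73 was -0.06, and 42 were lower.

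The double-stranded RNA activated enzymes, which include the oligoadenylate synthetases that switch on RNase L, were all lower in sign: 10 of 10 tested, with a median log2 fold change of -0.44, and 10 of 10 also under each of the other scalings. Of these, 5 had an unadjusted limma p under 0.05. Oasl2 was at 141 ± 30.4 normalized counts in sgRosa26 and 91.0 ± 9.67 in sgCcnd1 (-0.61 in log2, limma adjusted p = 0.252, DESeq2 adjusted p = 0.0308). Oasl1 was at 467 ± 56.6 and 318 ± 75.8 (log2 fold change -0.58, limma adjusted p = 0.266).

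Of 6 other PYHIN genes tested, 5 were lower in sign (median -0.39, but -0.20 without B and -0.26 without H). Ifi203 was at 184 ± 16.5 and 129 ± 24.5 normalized counts and Mndal at 154 ± 27.0 and 110.3 ± 13.6 (limma adjusted p = 0.253 and 0.297). Among inflammasome and necroptosis partners, 8 of 9 were lower in sign (median -0.36), and 7 of 9 with quantile normalization. With a minimum mean of 100 normalized counts only 3 remained, 2 of them lower, and the median was -0.05. Casp4, which senses cytosolic lipopolysaccharide, was at 31.5 ± 7.98 and 17.4 ± 7.01 (limma adjusted p = 0.346). Mlkl, the pore-forming effector of necroptosis, was at 98.2 ± 17.4 and 75.7 ± 5.25 (limma adjusted p = 0.374).

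The partners of Cgas and STING were split, 8 lower and 6 higher in sign of 14 tested, with a median of -0.06 (-0.11 to -0.02 when a library was left out). Ikbke, the relative of Tbk1, was at 552 ± 83.0 and 445 ± 26.4 normalized counts, and the Tbk1 adaptor Tbkbp1 at 251 ± 10.1 and 204 ± 23.8 (limma adjusted p = 0.334 for both). Sting1, named for its place in the pathway, was low at 50.5 ± 8.84 and 39.9 ± 7.56 (limma adjusted p = 0.522). Among 18 RIG-I-like receptor partners, 6 were lower and 12 higher in sign (median 0.07, and 0.03 to 0.11 when a library was left out). Usp18, an interferon-induced deconjugase of ISG15, was at 187 ± 43.6 and 120 ± 24.7 (limma adjusted p = 0.279), and the helicase gene Ddx60 at 118 ± 20.8 and 90.4 ± 22.02 (0.460).

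Of the other clearing and editing enzymes, 5 of 13 were lower in sign and the median was 0.01, a direction that flipped with scaling: 7 or 8 were lower under the others, and the median was -0.04 to 0.03 when a library was left out. Pld4, an endolysosomal exonuclease, was at 144 ± 7.18 and 108 ± 22.7 normalized counts (limma adjusted p = 0.334), and the RNA-editing enzyme gene Adar at 541 ± 67.9 and 479 ± 37.5 (0.556). Among the interferon genes, Ifnb1, Ifna1, Ifna2, Ifna4, Ifnl2 and Ifnl3 had 0 reads in all 9 libraries, which allows up to 3 reads per library. The receptor genes Ifnar1 (726 ± 61.7 and 775 ± 30.6) and Il10rb (156 ± 20.2 and 160.4 ± 14.4) were expressed and did not pass (limma adjusted p = 0.669 and 0.916).

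**Figure D5:**
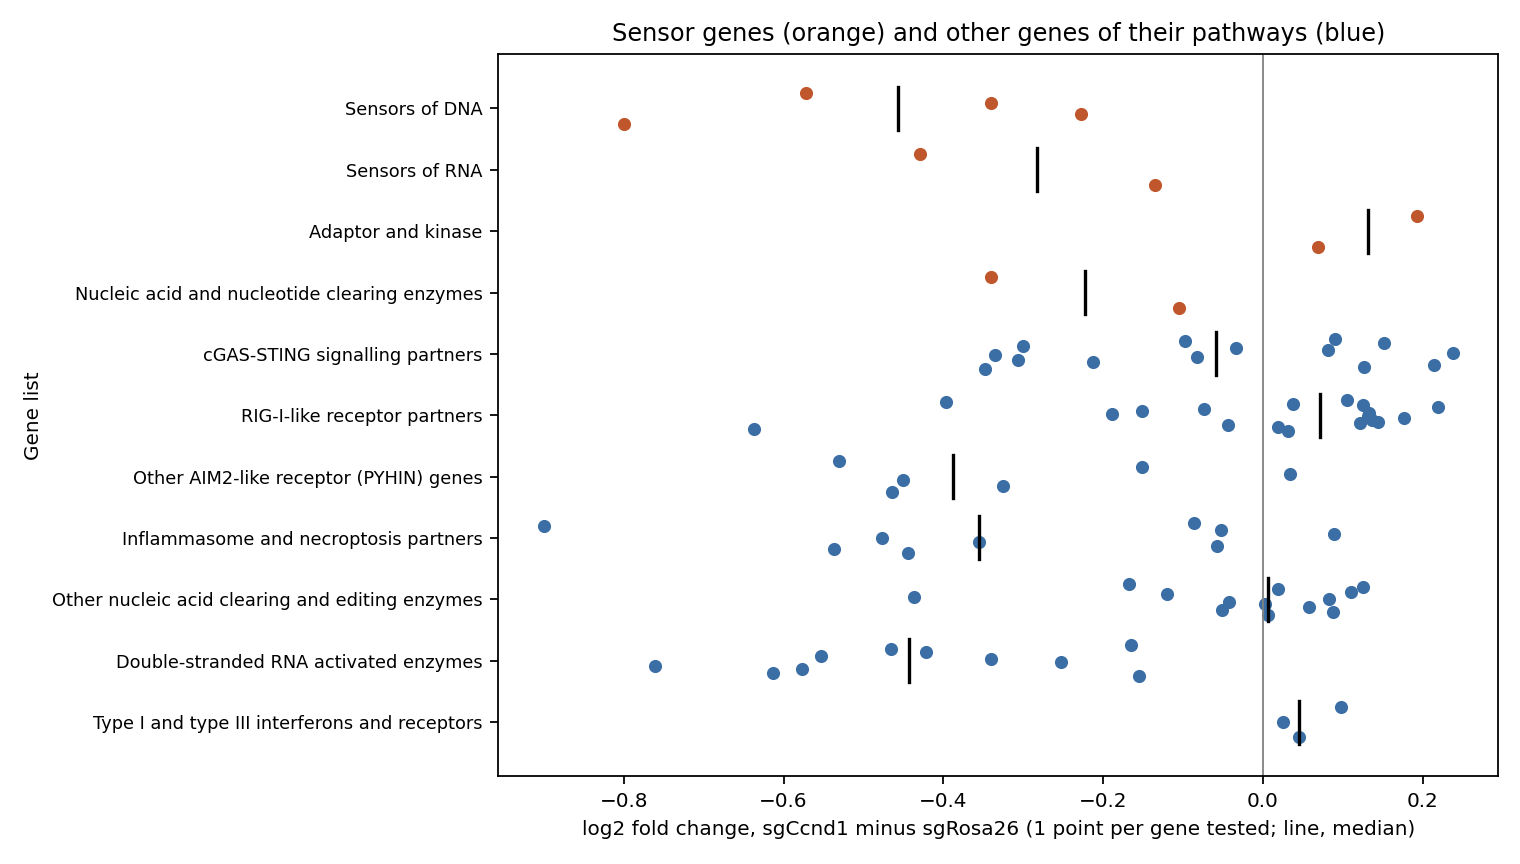
Log2 fold change (horizontal axis, sgCcnd1 minus sgRosa26) of every tested gene in the 4 role classes of the sensors (orange) and the 7 pathway lists (blue), with 1 point per gene and a line at each median. The double-stranded RNA activated enzymes all lie below 0 (median -0.44), while RIG-I-like receptor partners lie on both sides of it (median 0.07).

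Several of these sensors are prominent in leukocytes, so markers of the cell types of a liver piece are given beside them, as sums of normalized counts per library. Of the 8 myeloid markers, 8 were lower in sign (7 under quantile, TMM, RLE and DESeq2 scaling), 5 had an unadjusted limma p under 0.05 (background 5.74%), and DESeq2 called 3 (background 0.634%). Mpeg1, the most abundant of them, was at 1433 ± 199 and 933 ± 122 (limma adjusted p = 0.225, DESeq2 adjusted p = 0.00136). The 8 T and NK cell markers summed to 87.3 to 226 in sgRosa26 and 49.98 to 156 in sgCcnd1, with 4 of 5 libraries below all controls, and Cd4 was the most abundant. Of the 5 that could be tested, 5 were lower in sign with an unadjusted limma p under 0.05. Their median log2 fold change was -1.07 and their lowest limma adjusted p was 0.321. Cd3g met the minimum mean of 10 only through the controls (means 20.9 in sgRosa26 and 9.10 in sgCcnd1), so its direction was partly set by the filter. Markers below the minimum were Cd3d (10.3 in sgRosa26 and 4.90 in sgCcnd1), Klrb1c (4.61 and 4.11) and Ncr1 (2.95 and 3.30). Dendritic cell markers, led by Clec9a, summed to 193 to 240.2 in sgRosa26 and 123 to 199.7 in sgCcnd1. The 6 Kupffer cell markers, led by Cd5l, overlapped between groups at 1725 to 2612 in sgRosa26 and 1729 to 2266 in sgCcnd1. So did the 6 sinusoidal endothelial markers, led by Stab2, at 1915 to 2948 and 2190.1 to 3123. Stellate cell markers (led by Dcn) summed to 3104 to 4938 and 2885 to 4197, and cholangiocyte markers (Spp1) to 928 to 1906 and 749.7 to 1165. Red cell markers (Alas2) summed to 1136 to 2168 and 1801 to 2088. None of the markers in these lists was at 0 in all libraries. The part of these cell types in the lower values of Zbp1, Aim2, Dhx58 and Samhd1 was not tested.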

How the data were processed

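The authors deposited 1 table of normalized counts, a never-negative signal per Entrez gene and library. Per the submitters' processing notes, Trim Galore 0.6.7, HISAT2 2.2.1, featureCounts 2.0.3, DESeq2 2.11.40.8 and the builds mm10 and GRCm38 were used, and their settings, strand use and annotation are not given in the sources used here. In each library 100% of values above 0 lay within 0.01 of a whole multiple of the value of 1 read, so reads were recovered by division. For H that value was 0.9996, near 1 but apart from it, with Mavs at 1821.238 normalized counts for 1822 recovered reads. On these reads edgeR called 1 gene, lower, and DESeq2 called 76 lower and 41 higher.

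The test was limma 3.58.1 in R 4.3.3 (lmFit, eBayes with trend, two-sided, no covariates) on log2(normalized count + 1), a scale that understates changes of low genes. Genes needed a mean of 10. The Benjamini-Hochberg adjustment ran over the whole set of genes tested. Alternatives were other pseudocounts, filters and scalings, robust eBayes, edgeR 4.0.16, DESeq2 1.42.0 and leaving out each library. The procedures were tested on simulated counts. Replicates are the mice named in the titles. Exon lengths and gene positions came from GENCODE M21 (GRCm38) and promoters from RefSeq GRCm38.p6. Figures used matplotlib 3.10.9.

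The members and lists were chosen with earlier results of these data known. Genes named were the 10 members, the 2 genes of smallest limma p in each pathway list (none passed), the most abundant marker where given, and the 5 genes most like the members, of which 4 are given; some items the rule named are not reported here; Rigi, Sting1, the interferon genes and Atrip were added after their values were seen.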

Additional observations from a re-analysis of the deposited data

How the results depend on the processing

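No paired analysis was possible because no column of the table names a replicate. Limma called 0 members in either direction in all of its alternatives, and edgeR did the same with TMM, with RLE and with TMM without H. With DESeq2 the number called lower was 1, and 0 to 2 when a library was left out, a set of fits chosen after seeing the data: Dhx58 joined Zbp1 without A (adjusted p = 0.0335) and Samhd1 without E. Over these fits DESeq2 called 17 genes lower without B and up to 150 without E, where 76 were lower with all libraries. The number of members with groups apart and sgCcnd1 lower was 1, but 2 with 75th percentile scaling and with edgeR TMM scaling (2.25% and 2.12% of all genes), and 1 to 4 when a library was left out. It was 4 without C (Zbp1, Aim2, Dhx58 and Trex1, where 3.25% of all genes had this pattern) and 2 without D, E, G or I (3.84%, 4.27%, 2.50% and 2.52% of all genes). Mavs stood apart in the higher direction without A or G (4.36% and 2.79% of all genes). With a minimum mean of 100 normalized counts, which drops Cgas, Ifi204 and Aim2, the median log2 fold change of the members was -0.14, and over the fits that left out a library it ranged from -0.37 to -0.16 (limma and DESeq2). Tbk1 reversed without D, to -0.00011 with limma and -0.0081 with DESeq2, and reached 0.11 without C. The other 9 members kept their sign in every alternative that could test them. Read counts were lowest for Cgas and Aim2, and the Poisson intervals of Cgas cover counting error only.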
